A study of Bos taurus with 30 samples.

Results

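CRTAM, the cytotoxic and regulatory T cell molecule (ENSBTAG00000005193), is 1 gene of the 27607 in the table of counts, and it was chosen because its transcript was lower in bovine blood stored for 24 h. The values below for CRTAM between groups are therefore a description, with no test. Blood came from 5 estrus-synchronized crossbred beef heifers (Angus x Simmental), here subjects A to E, and the peripheral white blood cells (PWBCs), which are the nucleated cells of the buffy coat, were sequenced as bulk mRNA. Each heifer gave blood in EDTA tubes from the coccygeal vein, in the tail, which was processed at 1 h, and from the jugular vein, in the neck, which was kept at 4 °C and processed at 1, 3, 6, 8 or 24 h. The groups were coccygeal 1 h (n = 5), jugular 1 h (n = 5), jugular 3 to 8 h (n = 15) and jugular 24 h (n = 5). The 15 columns of the third group are those left after the others had been assigned, and neither the subject nor the exact time of a single column among them was known. All 5 heifers had received gonadotrophin-releasing hormone, a progesterone insert and prostaglandin to synchronize estrus, the same 5 stand behind every group, and all libraries hold a mixture of lymphocytes, monocytes and other white cells.

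CRTAM is a receptor of the immunoglobulin superfamily on the surface of lymphocytes. It was first described on activated natural killer (NK) cells and CD8+ T cells, and it is also known on a subset of CD4+ T cells. Its ligand is CADM1, a nectin-like adhesion molecule on target cells and dendritic cells. Binding is known to promote killing by NK cells and the secretion of interferon-gamma by T cells, and inside the T cell CRTAM recruits proteins of the cell polarity complex, CDC42 among them. EOMES, a transcription factor of killer lymphocytes, is known to be needed for the cytotoxic programme of CRTAM+ CD4+ T cells.

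In the annotation of ARS-UCD1.2 the gene lies on the plus strand of chromosome 15, from 33457223 to 33485670, codes for protein and has a transcript of 1783 bases. The RefSeq annotation of another assembly, ARS-UCD2.0, places 1 long non-coding RNA gene, LOC107133160, across an end of CRTAM. Counting did not use the strand, so fragments of such an overlapping transcript could not be told from those of CRTAM. CADM1 is on the same chromosome, on the minus strand from 25721022 to 26071036, at a distance of 7.39 Mb.

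Libraries held between 12412619 and 19492274 counts in all, and CRTAM was covered by 86 to 298 counts per library. CRTAM in CPM, the counts scaled to 1000000 per library, was 16.7, 15.9, 14.4, 10.4 and 16.6 in the coccygeal libraries of subjects A, B, C, D and E. In the jugular libraries at 1 h the values were 10.9, 15.9, 18.0, 10.9 and 11.8 CPM, in the same order. At 24 h they were 5.23, 6.65, 9.74, 8.01 and 7.89 CPM. Every 24 h library was thus below every library processed at 1 h, from either vein, and the highest value at 24 h, that of subject C, came from the heifer with the highest jugular value at 1 h. Among the 15 jugular libraries stored for 3 to 8 h the lowest value was 8.19, the median 10.5 and the highest 16.6 CPM. Of these, 7 fell within the range of jugular 1 h, 8 were below its lowest library, and 5 were at or below the highest 24 h library. None of the 15 was below the lowest 24 h library, while 4 of the 5 libraries of 24 h were below the lowest of 3 to 8 h, so that these groups overlapped.

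**Figure D1:**
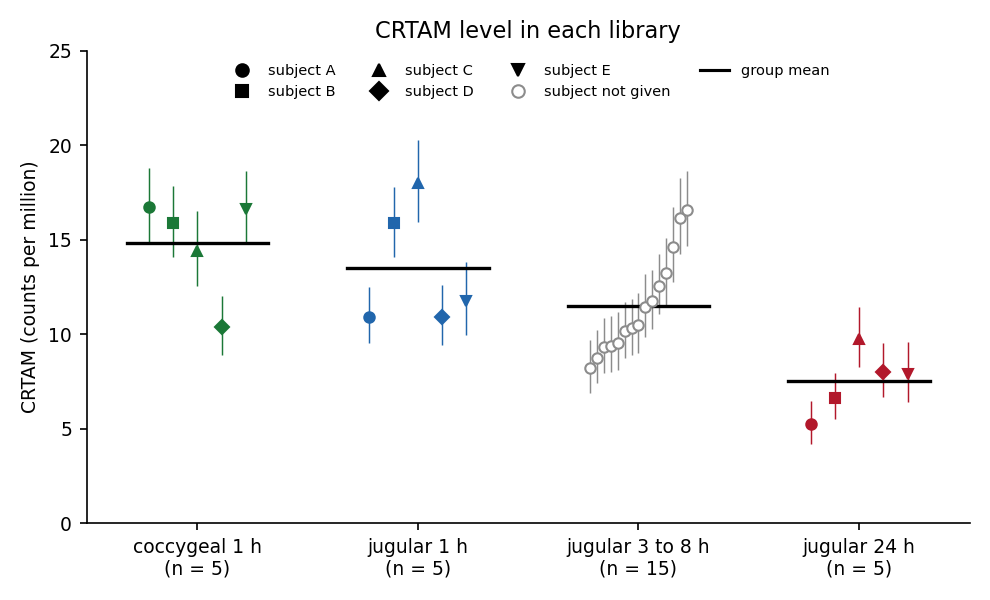
CRTAM in CPM (vertical axis, from 0) in each of the 30 libraries, by group; symbols give the subject, open circles are libraries whose subject is not given and stand in order of their value, thin bars are 95% exact binomial intervals that cover counting error only, and black lines are group means. All 5 libraries of 24 h, between 5.23 and 9.74 CPM, lie below the libraries of 1 h, which begin at 10.4 CPM, and overlap the lower part of the 3 to 8 h libraries.

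The group means were in the order coccygeal 1 h (14.8 ± 2.64 CPM, SD, n = 5), jugular 1 h (13.5 ± 3.25, n = 5), jugular 3 to 8 h (11.5 ± 2.63, n = 15) and jugular 24 h (7.51 ± 1.68, n = 5). Neighbours in this order had overlapping ranges in each case. The coefficient of variation was 17.8%, 24.1%, 22.9% and 22.4% in the groups in that order, and the number of counts alone gives 6.30%, 6.69%, 7.11% and 9.25%. For the lowest library, subject A at 24 h, the 95% exact (Clopper-Pearson) interval was 4.19 to 6.46 CPM, and for the highest, subject C at 1 h, it was 15.9 to 20.3 CPM. In these bulk samples, fewer cells that carry the transcript and less transcript per cell cannot be told apart.

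From 1 h to 24 h in the jugular vein, CRTAM was lower in all 5 subjects. At 24 h the library of subject B held 41.9% of the CPM at 1 h, that of subject A 47.9%, and that of subject C 54.1%. The values left were larger in subject E, with 67.1%, and in subject D, with 73.4%. On the log2 scale (CPM with a prior count of 2) the mean difference was -0.83 ± 0.33 (SD, n = 5), which is a 1.78-fold lower level, and the 5 differences lay between -1.24 and -0.44. DESeq2 fitted -0.85 with a standard error of 0.17, and 115 of the 14018 genes tested had a lower fold change in edgeR than CRTAM. Against the coccygeal library of the same heifer the difference at 24 h was -0.98 ± 0.52 (SD, n = 5), again with all 5 below 0. These comparisons chose the gene, and as background 345 of the 14018 genes (2.46%) had every 24 h library below every jugular library of 1 h, while 13.7% of genes were lower at 24 h in all 5 subjects.

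The other comparisons gave smaller differences for CRTAM. Between veins at 1 h, the coccygeal minus jugular difference on the log2 scale was 0.61 in subject A, 0.49 in subject E and 0.0028 in subject B, but -0.07 in subject D and -0.32 in subject C. The mean was 0.14 ± 0.39 (SD, n = 5), so CRTAM differed between veins in no common direction and the ranges of the veins overlapped almost wholly. For 3 to 8 h against 1 h the difference of the means was -0.23 with a pooled SD of 0.32 (n = 20), and for 24 h against 3 to 8 h it was -0.60 with a pooled SD of 0.32 (n = 20). Over all genes, the median fold change was within 0.01 of 0 on the log2 scale in each of the 4 comparisons.

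Per kilobase of the annotated transcript, which allows genes to be set side by side, CRTAM stood at 7.57 ± 1.82 CPM per kb (SD, n = 5) in jugular blood at 1 h. This level was between those of EOMES (4.49 ± 1.53) and its own ligand CADM1 (14.2 ± 4.74). CD8A, the coreceptor chain of killer T cells, had 23.0 ± 6.30 CPM per kb, and PRF1, the pore-forming protein of cytotoxic granules, had 41.4 ± 8.42. CD4, the coreceptor of helper T cells, had the highest level of these 6 genes, at 87.0 ± 10.4 CPM per kb.

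Other genes were tested in one fit over 14018 genes, and a gene was called when its Benjamini-Hochberg adjusted p (FDR) was under 0.05 in both edgeR and DESeq2 and its log2 fold change in edgeR was beyond 0.5 in either direction. At 24 h against 1 h, 361 genes (2.58%) were called, 158 of them (1.13%) lower. Gene symbols came only from the supplementary tables of the study, and 1 kind of table lists genes in the order of their identifiers while another lists genes that the study had called at 24 h. A symbol found only in the second kind belongs to a gene chosen on these samples, so its direction is not independent evidence, and such genes are counted apart below.

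The ligand and the intracellular partners were represented by 2 of 22 listed symbols, and neither was called. In jugular libraries at 1 h CADM1 lay between 12.9 and 27.7 CPM, with a median of 15.7, and at 24 h between 11.1 and 15.7, with a median of 13.3. The groups overlapped, and the log2 fold change was -0.40 with an FDR of 0.091 in edgeR and 0.088 in DESeq2. The difference was -1.06 in subject A and between -0.37 and -0.04 in the other 4 subjects. CDC42, a small GTPase of cell polarity, was at 419 ± 46.6 CPM (SD, n = 5) at 1 h and 425 ± 26.7 at 24 h, with a log2 fold change of 0.03 (edgeR FDR = 0.84).

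Of the products and regulators of CRTAM+ cells, 4 of 20 symbols were matched, and 1 was called. This was EOMES, named only in a table chosen by direction, which fell from 16.5 ± 5.61 CPM (SD, n = 5) to 10.5 ± 3.80 with a log2 fold change of -0.65 (edgeR FDR = 0.0076) and was lower in 5 of 5 subjects. IL18R1, a receptor chain for the interferon-inducing cytokine interleukin 18, had 13.5 ± 2.65 CPM at 1 h and 8.98 ± 2.79 at 24 h, lower in 4 of 5 subjects. Its log2 fold change of -0.61 passed in DESeq2 (FDR = 0.032) but not in edgeR (FDR = 0.13). Without subject A the fold change was -0.35 (FDR = 0.31 in DESeq2), and the pass in DESeq2 was also lost without D (FDR = 0.19) or E (FDR = 0.097). IL23R, the receptor of interleukin 23, was also named only in a table chosen by direction. It was near the detection filter, at 1.62 CPM at 1 h and 0.82 at 24 h (edgeR FDR = 0.068). NFATC1, a transcription factor that follows antigen receptor signals, had a log2 fold change of 0.02 (edgeR FDR = 0.88).

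The cytotoxic lymphocyte list had 10 tested genes among 36 symbols, of which 2 were called, both lower and both named only in tables chosen by direction. These were EOMES, given above, and CD8A, which fell from 49.4 ± 13.5 CPM (SD, n = 5) to 33.8 ± 15.5 with a log2 fold change of -0.60 (edgeR FDR = 0.0049). GZMB, a granule protease also named only by direction, had 15.7 ± 12.7 CPM at 1 h and 7.03 ± 9.71 at 24 h (SD, n = 5). It was lower in 4 of 5 subjects, with a log2 fold change of -1.47, and was not called (FDR = 0.18 in edgeR and 0.053 in DESeq2). With each subject left out its fold change ranged from -2.17 without D (FDR = 0.051 in edgeR and 0.0044 in DESeq2) to -1.09 without A (0.30 and 0.29) and -1.03 without E (0.34 and 0.27), and it was called in none of these fits. Among the 7 genes named in identifier order, 0 were called. The median log2 fold change of these 7 was -0.02, against 0.0092 over all genes tested, with a range from -0.32 to 0.15. PRF1 had the lowest value of the 7, with 112 ± 22.9 CPM at 1 h and 91.2 ± 24.1 at 24 h. It was lower in 5 of 5 subjects with an edgeR FDR of 0.020, but its fold change of -0.32 did not reach the threshold. The pass in edgeR was lost without subject A (FDR = 0.051) or E (FDR = 0.064). The receptors FCGR3A and CX3CR1, which mature NK cells carry, had log2 fold changes of -0.02 and 0.05. Which cells carried them in this mixture was not measured. They had the highest levels of the 7 genes in jugular libraries at 1 h, 160 ± 39.9 and 205 ± 88.4 CPM (SD, n = 5), and so weigh most in the sum of the 7. The summed level of the 7 genes ranged from 435 to 900 CPM in jugular libraries at 1 h and from 444 to 838 CPM at 24 h, so the groups overlapped.

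The T cell list had 13 tested genes among 24 symbols, and 12 of them were called, all lower. Of these, 11 were named only in tables chosen by direction, and of the 2 named in identifier order, CD4 and TCF7, 1 was called. Over all 1630 tested genes in identifier order, 16 were called lower. CD4 fell from 257 ± 30.8 to 170 ± 37.9 CPM (SD, n = 5), a log2 fold change of -0.62 (edgeR FDR = 0.015). TCF7, a transcription factor of naive and memory T cells, was at -0.38 with an edgeR FDR of 0.0068, short of the fold threshold. Both were lower in 5 of 5 subjects. Without subject A, CD4 had a log2 fold change of -0.49, short of the fold threshold, and 8 T cell genes were called in place of 12. Without the subject as a block 0 of them were called.

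Among the 11 T cell genes chosen by direction, the largest fold changes were those of IL7R, the receptor of the survival cytokine interleukin 7, at -0.90 (edgeR FDR = 0.011), and LEF1, a partner of TCF7 in naive T cells, also at -0.90 (edgeR FDR = 0.0036). LEF1 went from 154 ± 40.0 to 84.7 ± 29.3 CPM (SD, n = 5). The costimulatory receptor CD28 and the adhesion receptor CD2 fell by 0.66 and 0.61 on the log2 scale, and CCR7, which guides T cells to lymph nodes, fell by 0.54. The call of CD2 was lost without subject A, B, D or E. That of CCR7 was lost without B or C, with a fold change of -0.49 in each case. The smallest fall of these 11 was that of CD6, by 0.52, and its call was lost without subject A (-0.41).

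**Figure D2:**
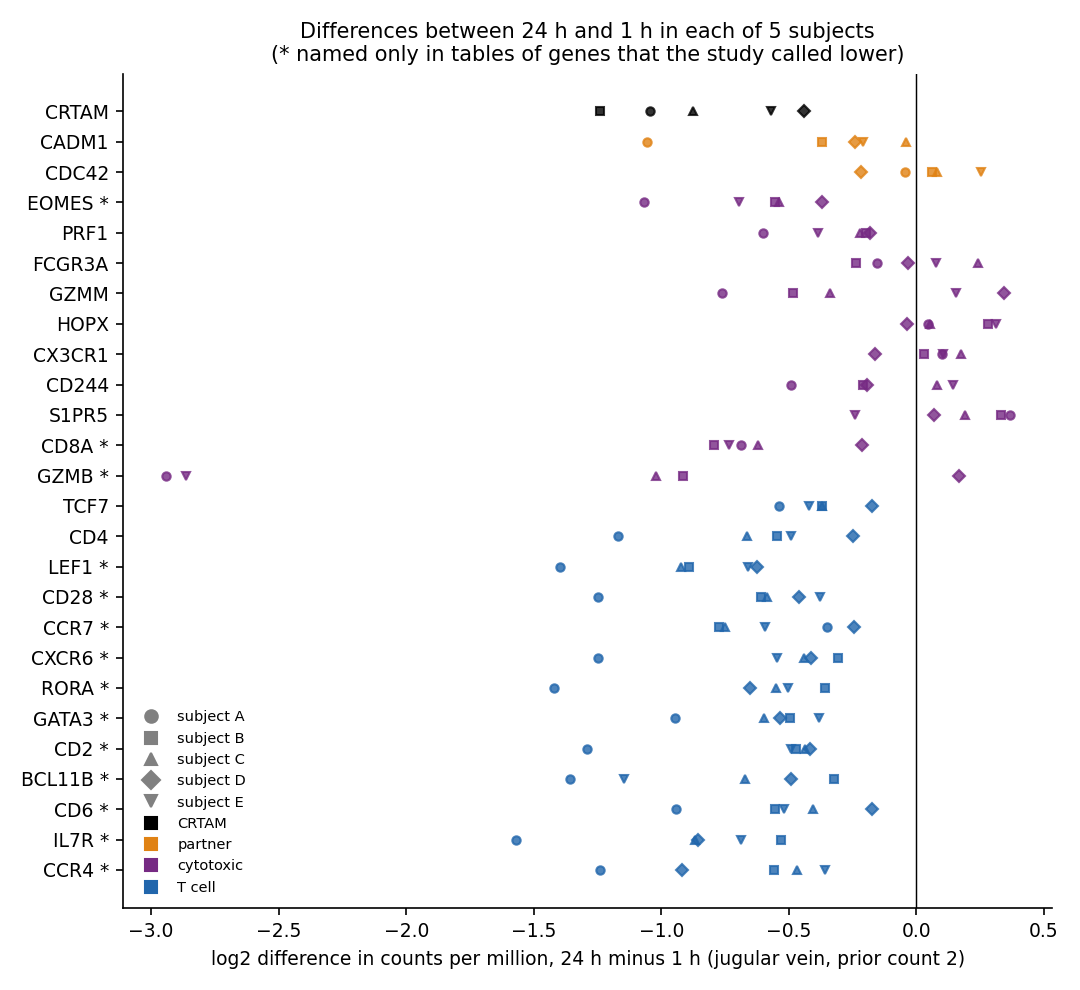
Log2 difference in CPM between 24 h and 1 h of the same heifer (horizontal axis, jugular vein, prior count 2) for CRTAM and for the partner, cytotoxic and T cell genes tested; each symbol is 1 of 5 subjects and colours give the list. An asterisk marks genes named only in tables of genes that the study called lower, so their direction was chosen. CRTAM is below 0 in all 5 subjects, between -1.24 and -0.44, as are the T cell genes, of which 11 carry an asterisk. Without an asterisk, CD4, TCF7 and PRF1 are below 0 in all 5 subjects, and the other cytotoxic genes lie on both sides of 0. With an asterisk, the cytotoxic genes EOMES and CD8A are also below 0 in all 5.

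CRTAM was then set against these lists library by library. Per 1000 counts of CD4 and TCF7 together, CRTAM had 25.1 ± 3.79 counts in jugular blood at 1 h (SD, n = 5), 23.4 ± 3.19 at 3 to 8 h (n = 15) and 19.5 ± 2.58 at 24 h (n = 5). In the coccygeal libraries it had 24.95 ± 2.32 (n = 5). The ranges at 1 h (20.4 to 28.5, jugular) and 24 h (16.2 to 22.5) overlapped. The log2 ratio was lower at 24 h in all 5 subjects, with differences between -0.81 and -0.12 (mean -0.36 ± 0.27, SD). CRTAM was thus lower at 24 h also relative to CD4 and TCF7, although by less than in CPM. This depends on the genes taken. The edgeR log2 fold changes of the 13 T cell genes ranged from -0.90 to -0.38, with TCF7 the smallest fall, against -0.85 for CRTAM. Per 1000 counts of the 7 cytotoxic genes named in identifier order, CRTAM went from 21.8 ± 6.87 at 1 h to 12.2 ± 3.49 at 24 h, and the mean log2 ratio was -0.81 ± 0.34 (SD, n = 5). That value is close to the difference of CRTAM itself. These ratios hold the same CRTAM counts that chose the gene and were not tested.

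The likeness of each gene to CRTAM was taken as Pearson's r of log2(CPM + 1) over the 30 libraries, which share 5 heifers and are not independent, so r is given as a description. The median r over all genes was 0.039. The 10 most alike genes had an r from 0.86 to 0.911. Only 2 of the 10 have a symbol in the tables used, LEF1 (r = 0.883) and MLLT3, a subunit of the super elongation complex of transcription (r = 0.861). The most alike of all, ENSBTAG00000011851, is without a symbol, with an r of 0.911. It went from 195 ± 17.8 CPM at 1 h to 151 ± 22.6 at 24 h (SD, n = 5). The 5 least alike genes had an r from -0.788 to -0.756, and none of them has a symbol here.

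Of the lists, that of T cell genes was the most like CRTAM. Over its 13 genes, 11 of them chosen by direction, r ranged from 0.447 to 0.883 with a median of 0.739. Besides LEF1, the highest were CD2 (0.847), CCR7 (0.823), CD4 (0.82) and CD28 (0.815). Over the 7 cytotoxic genes named in identifier order the median was -0.093 and the range -0.175 to 0.227, with 0.218 for PRF1 and 0.192 for GZMM, a granule protease. The cytotoxic genes chosen by direction gave 0.586 for EOMES, 0.442 for CD8A and -0.097 for GZMB. CADM1 had an r of 0.063. In Spearman's rho, CD4 had 0.779, LEF1 0.865 and PRF1 0.18, and without the 2 libraries farthest from the median of CRTAM, r was 0.763, 0.839 and 0.11 for these genes.

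**Figure D3:**
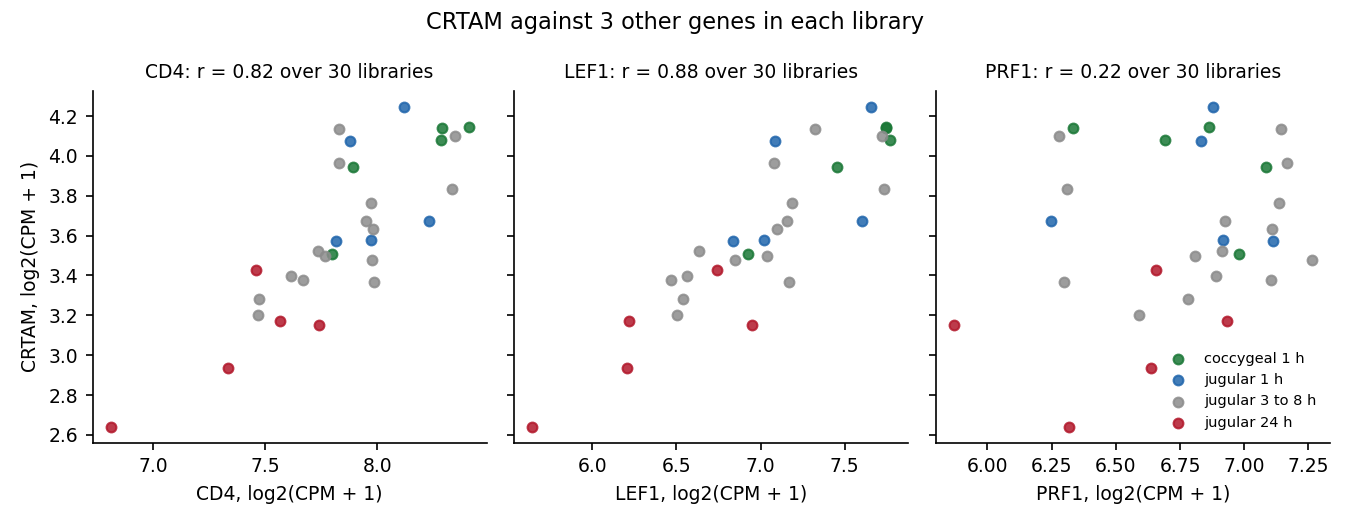
CRTAM (vertical axis) against CD4, LEF1 and PRF1 (horizontal axes), all in log2(CPM + 1), with 1 point for each of 30 libraries coloured by group. The points rise together for CD4 (r = 0.82) and LEF1 (r = 0.883), and spread widely for PRF1 (r = 0.218).

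The T cell list also had the highest median r once the mean differences between groups were taken out. Storage time still varied within the group of 3 to 8 h, which pools its times, and the change with storage differed between heifers. The part of storage in the values of r below was not tested. After the mean of each group was removed from every gene, r was 0.78 for LEF1, 0.713 for CD2, 0.688 for TCF7 and 0.651 for CD4, and the median over the T cell list was 0.517. The median over the 7 cytotoxic genes named in identifier order was then -0.072, with 0.006 for PRF1, while CD8A had 0.142, EOMES 0.432 and GZMB -0.374. Within the 15 libraries of 3 to 8 h alone, r was 0.797 for LEF1, 0.659 for CD4, 0.653 for TCF7, 0.426 for EOMES, 0.175 for CD8A, 0.044 for PRF1 and -0.349 for GZMB. Some T cell genes were less like CRTAM than EOMES was, such as CXCR6 (0.262), GATA3 (0.267) and RORA (-0.075), a transcription factor of helper T cells. The covariation of CRTAM with genes of cytotoxic lymphocytes was thus mixed, positive for EOMES, near 0 for PRF1 and negative for GZMB in both of these, whereas it was high for CD4 and TCF7, which were not chosen by direction. The cell type that carried the transcript was not measured.

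**Figure D4:**
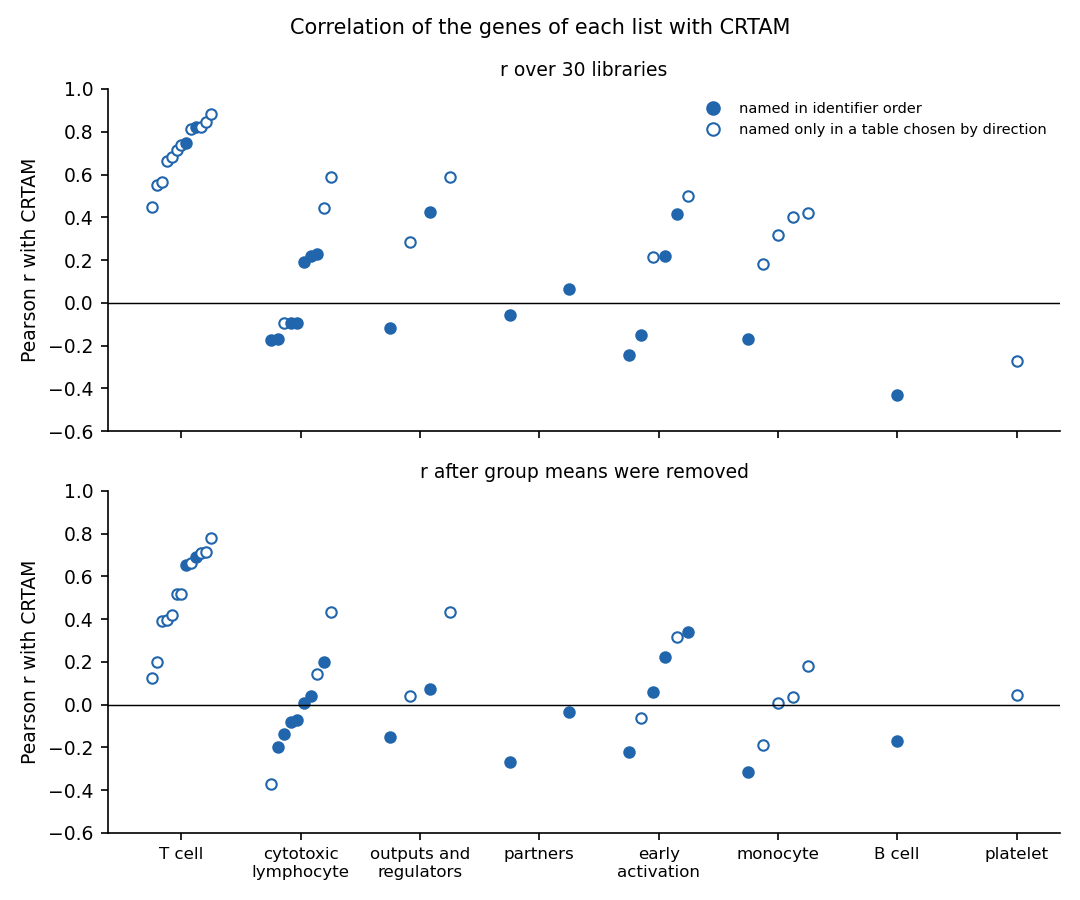
Pearson's r with CRTAM (vertical axis) for the tested genes of each list, over all 30 libraries (upper panel) and after group means were removed (lower panel); filled circles are genes named in identifier order and open circles are genes named only in tables chosen by direction, with EOMES shown in 2 lists. T cell genes reach 0.883 above and 0.78 below, while the 7 filled circles of the cytotoxic list stay between -0.197 and 0.227 in both panels.

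Among the genes in identifier order that carry a symbol, the 10 most like CRTAM were singled out after their values were seen. They included CD4 and TCF7. Outside the lists they included PRKCA, the alpha form of protein kinase C (r = 0.752), LGALS3, a galectin (0.751), and PRKCH, the eta form of protein kinase C (0.749). ENSBTAG00000000432, in identifier order but without a symbol, was more alike (r = 0.898) and was called lower (log2 fold change -0.62). The fold changes of PRKCA and PRKCH at 24 h were -0.32 (edgeR FDR = 0.10) and -0.40 (edgeR FDR = 0.019) on the log2 scale, and neither was called.

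Genes of other cell types were looked up in the same fit. In the monocyte list 4 of 5 tested genes were called, all lower and all named only in tables chosen by direction, and they were CD14, TLR4, CCR2 and VCAN, with log2 fold changes from -0.85 to -0.61. The call of TLR4 was lost without subject A, D or E, and with no replicate block 0 of the 4 were called. The monocyte gene named in identifier order, CD68, had -0.09 and was not called. The summed level of the 5 genes ranged from 415 to 671 CPM in jugular libraries at 1 h and from 264 to 417 CPM at 24 h, so the groups overlapped slightly. CD79A, the only B cell gene matched, had 504 ± 51.6 CPM at 1 h and 575 ± 85.9 at 24 h (SD, n = 5; log2 fold change 0.18, edgeR FDR = 0.18). VWF, a protein of platelets and endothelium, rose by 0.68 (edgeR FDR = 0.011) and was named from a table of genes called higher. Of the early activation genes, 6 were tested and 0 were called in both tools, among them CD69 (-0.14). The log2 fold changes of the 6 ranged from -0.80 to 0.17, with a median of -0.20. EGR2 (-0.80) and IL2RA (-0.61), both named only in tables chosen by direction, were lower in 5 of 5 subjects. In edgeR alone EGR2 had an FDR of 0.041, against 0.11 in DESeq2. Symbols of neutrophil and red cell markers were not among the names used. The part of these cell types in the values of CRTAM was not tested.

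In the other comparisons the genes of the CRTAM, cytotoxic and T cell lists were not called by both tools together. Between veins, 0 of 14018 genes (0.0%) were called by edgeR and DESeq2 together or by either alone, with 278 genes at an unadjusted p under 0.05 in edgeR. For 3 to 8 h against 1 h the count was also 0 (0.0%) in both tools, with 174 genes at an unadjusted p under 0.05 in edgeR. The T cell list had a median log2 fold change of -0.13 in that comparison, and the cytotoxic genes named in identifier order had 0.04. For 24 h against 3 to 8 h, 28 genes (0.2%) were called, 8 of them (0.0571%) lower, and 0 of the T cell list, whose median was -0.52. DESeq2 alone called 68 genes, 41 of them lower, and among these were 5 of the T cell list, namely CCR4 (edgeR log2 fold change -0.60, FDR = 0.083 in edgeR and 0.0015 in DESeq2), CXCR6, IL7R, BCL11B and GATA3. LEF1 had -0.65 (FDR = 0.27 in edgeR and 0.077 in DESeq2) and CD4 had -0.47 (FDR = 0.18 in edgeR and 0.046 in DESeq2). IL18R1, a receptor chain for interleukin 18, had -0.55 and also passed in DESeq2 alone (FDR = 0.11 in edgeR and 0.017 in DESeq2). The monocyte gene CCR2 was called by both, with -0.67 (FDR = 0.023 in edgeR and 0.00092 in DESeq2). These counts with the 3 to 8 h libraries come from fits without the animal as a block, since the animal of those libraries was not known, and cannot be set beside the 361 of the blocked fit of 24 h against 1 h, which became 30 without the block. Such fits also took the 15 libraries of 3 to 8 h, which share 5 heifers, as separate, and pooled their times. The count of 0 for 3 to 8 h therefore does not show that no gene differed at 8 h. The paper, with 8 h tested on its own, reported a few genes as higher than at 1 h. The comparisons share the 1 h or the 24 h libraries, so they do not support each other independently.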

How the data were processed

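Bulk mRNA of PWBCs was sequenced in 30 libraries of 5 heifers. The authors trimmed adapters (cutadapt 2.8), aligned read pairs to ARS-UCD1.2 (HISAT2 2.2.0, SAMtools 1.10), removed duplicates and assigned fragments to Ensembl genes without strand (featureCounts, Subread 2.0.1), and they deposited these counts without normalization for 27607 genes. Groups and subjects of 15 columns came from the supplementary code, and the other 15 columns form the group of 3 to 8 h. The subjects pair samples of the same animal, and deviations of the same subject correlated with a mean r of 0.61 (24 h and 1 h) and 0.66 (veins).

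CPM was computed on total counts. A gene was kept when its CPM exceeded 1 in at least 5 libraries, which left 14018. edgeR 4.0.16 (quasi-likelihood test) and DESeq2 1.42.0 (Wald test) were run in R 4.3.3 with library size as the only scaling in edgeR and size factors in DESeq2, with the subject as a block for 24 h against 1 h and for the veins, and without it otherwise. The steps were tested on simulated data. CRTAM, the lists and the rule for named genes (every list gene tested, the 10 most and 5 least alike, the neighbours) were chosen with earlier results of these data known. Symbols and coordinates came from supplementary tables, which hold 1807 genes in the parts used, and 0 identifiers matched the gene list of ARS-UCD2.0. With 3 counts as the floor, the detection limit was 0.154 to 0.242 CPM, and intervals cover counting error only. Correlations of the 5 paired differences were not computed, since 5 points are too few. Alternatives were TMM, each tool alone, no filter, no fold threshold, no block, other size factors, a prior count of 0.5, and each subject left out. Counts of T cell genes under these were added after seeing the data. Some listed genes are not reported here. RNA integrity and read coverage were not analysed here.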

Additional observations from a re-analysis of the deposited data

Results flagged for a closer look

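In 117 groups of 5 values of CRTAM and the listed genes, 7 had 1 value far from the other 4 by Dixon's criterion, which chance gives in about 1 of 20 groups. None was a group of CRTAM values. EOMES at 24 h was 17.0 CPM in subject C, against 7.02 to 9.67 in the others. CD8A in coccygeal blood was 74.3 CPM in subject D, against 46.5 to 51.8. GZMB at 24 h was 24.1 CPM in subject D, against 0.455 to 4.58. The other 4 were differences of subject A between 24 h and 1 h, on the log2 scale. They were -1.25 for CD28 (others -0.61 to -0.38), -1.25 for CXCR6 (others -0.55 to -0.31), -1.42 for RORA (others -0.65 to -0.36) and -1.29 for CD2 (others -0.49 to -0.42). For CRTAM the difference of subject A was -1.05, between those of subjects B and C, and the mean over the 5 heifers lay between -0.93 and -0.73 when any 1 of them was left out.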

How the results depend on the processing

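The log2 difference of CRTAM kept its sign under TMM, DESeq2 size factors, a prior count of 0.5 and with libraries left out in turn. With each subject left out it was -0.93 to -0.73 for 24 h against 1 h and 0.03 to 0.26 between veins. With each 1 h library left out it was -0.30 to -0.12 for 3 to 8 h against 1 h, and with each 24 h library left out -0.70 to -0.48 for 24 h against 3 to 8 h. The genes called at 24 h against 1 h numbered 361, but 1301 with no fold threshold, 30 with no replicate block, and 156 to 396 with each subject left out (156 without A, 237 without B). With no replicate block, and thus without the pairing by heifer, 0 of the cytotoxic and 0 of the T cell genes were called. These counts were 2 and 8 to 11 with each subject left out. For 24 h against 3 to 8 h, 28 genes (20 higher, 8 lower) were called, 68 (27 higher, 41 lower) in DESeq2 alone, 57 (23 higher, 34 lower) with no fold threshold, and 15 to 34 with each 24 h library left out (15 without A, 17 without D). The count between veins stayed 0 under TMM, each tool alone, no filter, no fold threshold, each subject left out and no replicate block, and the count for 3 to 8 h against 1 h stayed 0 under the same alternatives, except that its fit has no block to remove and 1 h libraries were left out. Of the 10 genes most like CRTAM, 6 were among the top 10 by Spearman's rho and 6 after group means were subtracted. The causes of these shifts were not tested. At the mean count of each group, CRTAM has a counting error of 6.30% to 9.25%. Its lists are limited by names, since 1738 tested genes carried a symbol.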

Other observations

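The supplementary tables of genes that the study called lower at 24 h place CRTAM in a category of positive regulation of interferon-gamma production with 6 other genes. Since these were chosen on the same samples, their direction is not independent evidence. All 6 had a negative log2 fold change at 24 h against 1 h, and 4 were called here, namely the T cell adhesion receptor CD2, the endotoxin receptors TLR4 and CD14, and the chemokine receptor CCR2. The call of TLR4 was lost without subject A, D or E, that of CD2 without A, B, D or E, and with no replicate block 0 of the 4 were called. IL18R1 and IL23R were not called. Over the 30 libraries, r with CRTAM was 0.847 for CD2, but 0.425 for IL18R1, 0.421 for CCR2, 0.316 for CD14, 0.282 for IL23R and 0.182 for TLR4.

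On chromosome 15 the nearest tested gene with a symbol before CRTAM was UBASH3B, a phosphatase that restrains signalling in lymphocytes and platelets, which ends 16.5 kb away (33291675 to 33440714, plus strand, ARS-UCD1.2). Its level was 30.1 ± 4.66 CPM (SD, n = 5) at 1 h and 23.0 ± 4.24 at 24 h, and the fitted change of -0.39 on the log2 scale (edgeR FDR = 0.0099) did not reach the fold threshold. After CRTAM the nearest was BSX, a homeobox gene at 113 kb (33598811 to 33602494, minus strand), named only in a table of genes called higher. It had 0.809 CPM at 1 h and 1.45 at 24 h, with a log2 fold change of 0.82 (edgeR FDR = 0.044) and no adjusted p in DESeq2, so it was not called.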
